A study of Mus musculus with 36 samples.

Results

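Of the 18 clones and 36 single neurons of this series, 6 clones have both of their sequenced cells labelled sSC, read here as the superficial superior colliculus. These clones, named K, R, S, T, M and N, hold 12 cells and are described here. They were chosen by the clone letter in the title and the tissue label, with no use of expression. Each library is the transcriptome of 1 mouse neuron. The 2 cells of a clone descend from 1 radial glia progenitor labelled on embryonic day 12, and the question that the design poses is whether such siblings are more alike than neurons of different progenitors. Clones K, R, S and T (8 cells) carry the genotype M11GTTG-Fz10-CreER, and clones M and N (4 cells) carry M11GTTG-Sox2-CreER. M11GTTG, the MADM cassette pair on chromosome 11, is shared by all of them, on a mixed C57/Bl6, FVB and CD1 background. The experimental ages in the labels run between embryonic day 9.5 and postnatal day 30, with no age for a given cell, and males and females were both used. The driver marks the progenitors that express the recombinase and not a neuron type. A sequenced pair can be part of a larger clone. Animals are not named in the labels. An effect of the clone therefore cannot be told apart from one of its animal or its collection, and each clone has 1 driver only. Cells are named by the clone letter and the cell number, as in N.1 and N.2.

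MADM (mosaic analysis with double markers) joins a split fluorescent reporter by recombination between homologous chromosomes in a dividing cell, so that the descendants of single progenitors can be found later. The superior colliculus of the midbrain roof receives retinal input in its superficial layers and holds mixed excitatory and inhibitory neurons. Excitatory neurons there load glutamate into vesicles with the transporter Slc17a6, whereas inhibitory neurons make GABA with Gad1 and Gad2 and load it with Slc32a1. Transcription factors such as Gata2, Gata3, Tal1 and Sox14 are tied to the GABA fate in the midbrain, and factors such as Pou4f1 and Barhl2 to glutamatergic neurons.

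All 12 cells carried neuronal transcripts. The summed value of 14 neuron markers, among them Snap25 and Rbfox3, ran between 6032 and 9310, where a value is the sum of an exon and an intron TPM and each cell adds up to 2000000. Genes detected, meaning those that reached 1, had a median of 12652.5 per cell. The count was lowest in S.2 (8895) and K.1 (9140) and highest in N.1 (14555). Transcripts of other cell types were present as well. Microglia markers summed to values between 234 and 4987, astrocyte markers to between 1293 and 3957, and oligodendrocyte markers to between 1579 and 31228, the last in M.2. Fzd10 reached 1 in R.1 alone (2.08) and Sox2 in 6 cells of both genotypes. As the drivers act in progenitors, neither gene checks the driver label of these neurons.

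Across all genes, siblings differed by about as much as neurons of different clones did. For each pair of cells the absolute difference in log2(value + 1) was averaged over 16133 genes that reached 1 in at least 25% of the 12 cells. This gap was 2.05 in clone K, 1.97 in clone R, 2.34 in clone S and 1.97 in clone T, the Fz10-CreER clones. In the Sox2-CreER clones it was 1.71 in clone M and 1.86 in clone N. The siblings of clone S were thus the least alike and those of clone M the most alike. Over the 4 Fz10-CreER clones siblings differed by 2.08 ± 0.18 (SD, n = 4 pairs), and cells of different Fz10-CreER clones by 2.08 ± 0.20 (SD, n = 24 pairs that share cells). Over the 2 Sox2-CreER clones the gap was 1.78 ± 0.11 in siblings (SD, n = 2 pairs) and 1.81 ± 0.04 in cells of different clones (SD, n = 4 pairs). The mean over the 6 clones, 1.983, was set against all 315 pairings of the 12 cells within their driver, whose mean was 1.989. The difference of -0.01 lay well within the spread of the pairings (two-sided exact permutation test, p = 0.457, smallest possible p 0.00635). Without clone S the difference was -0.02 (exact permutation p = 0.0444), and without clone M (0.0009324), N (0.0003937) or R (0.0006528) its sign was reversed.

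**Figure D1:**
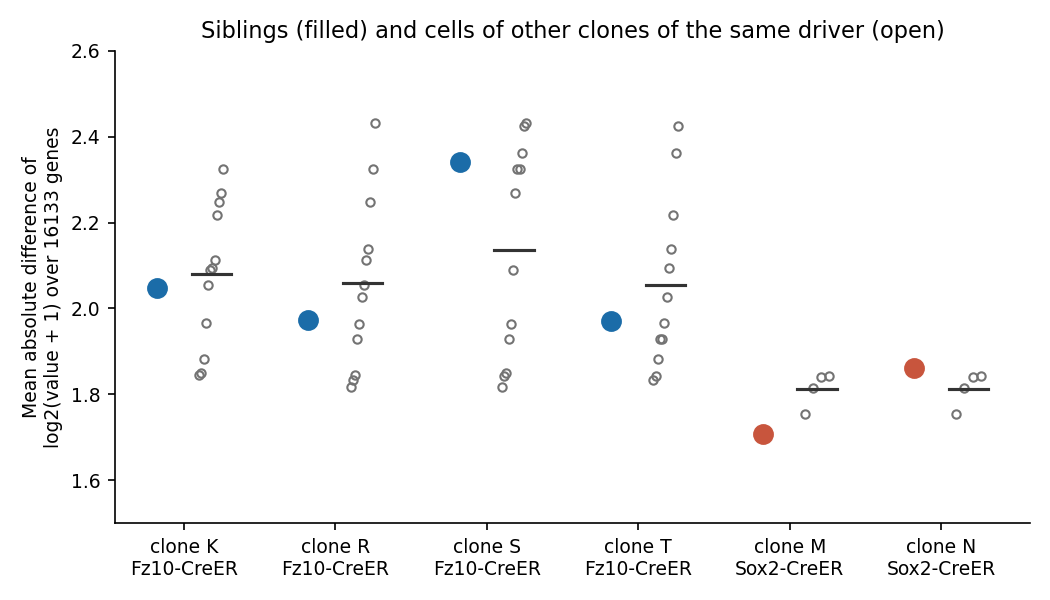
Mean absolute difference of log2(value + 1) over 16133 genes (vertical axis, starting at 1.5) for siblings (filled points, blue Fz10-CreER and red Sox2-CreER) and for the same cells paired with cells of other clones of the same driver (open points, bar at their mean). The sibling point lies within the range of the open points in clones K, R, S and T, below it in clone M (1.71) and above it in clone N (1.86).

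Many genes separated siblings by 3 log2 units or more. This held for 28.5% of the genes in clone K, 25.3% in clone R, 33.2% in clone S, 25% in clone T, 19.3% in clone M and 22.5% in clone N. Cells of different clones of the same driver differed that far in between 19.5% and 34.7% of the genes. Siblings shared between 50.5% and 63.8% of the genes found in either of them, and cells of different clones of the same driver between 46.4% and 64.0%. A sibling was the nearest of the other 11 cells for 3 of 12 cells (K.1, M.1 and M.2). For S.1 the sibling was the farthest of all, and M.2 was the nearest cell for K.2, R.2, S.1, T.1, T.2, N.1 and N.2 as well as for its sibling. Of the 2734 genes found in exactly 2 of the 12 cells, each sibling pair held 41.0 on average (19 in clones K and S and 77 in clone N). Each pair from different clones held 41.5, and each such pair of the same driver 35.4, between 10 and 93. The gap in the number of genes detected was 1509 between siblings and 1463 over the pairings (exact permutation p = 0.705). It was 3577 in clone S and 2688 in clone K, against 117 in clone R and 207 in clone M.

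No gene of GABA or glutamate transmission differed between clones beyond the spread of siblings. Gad1, Gad2 and Slc17a6 were found in all 12 cells, and in clones N, M and R the siblings had opposite orders of Gad1 and Slc17a6. In N.1, Gad1 reached 817, Gad2 822 and Slc17a6 only 42.3, whereas in N.2 Gad1 was 55.3, Gad2 was 9.92 and Slc17a6 was 424. In clone M, Gad1 was 96.1 and Slc17a6 was 196 in M.1, against 535 and 20.3 in M.2. In clone R, Gad1 was 276 and Slc17a6 was 91.8 in R.1, against 14.9 and 196 in R.2. Each of these clones thus held a cell richer in Gad1 and a cell richer in Slc17a6. In the other 3 clones both cells had Gad1 above Slc17a6. Gad1 was 326 and 282 in clone K, 301 and 297 in clone S, and 343 and 389.6 in clone T. The siblings of these clones therefore had similar Gad1, while Slc17a6 still ranged widely, with 1.49 and 95.4 in clone K, 26.01 and 68.6 in clone S, and 31.2 and 12.9 in clone T.

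A transmitter balance was computed per cell by subtracting the log2(value + 1) of Slc17a6 from the average over the GABA genes Gad1, Gad2 and Slc32a1. It was 2.90 and -5.38 in the cells of clone N, -2.86 and 2.96 in clone M, and 0.72 and -3.11 in clone R. It was 5.65 and -0.001 in clone K, 2.25 and 0.35 in clone S, and 1.14 and 1.72 in clone T. The balance had opposite signs in 4 of 6 clones, counting clone K with a cell at about 0, and was above 0 in both cells of 2 clones. Siblings differed by 4.34 on average against 3.55 over the pairings within driver (two-sided exact permutation test, p = 0.533), so siblings were not closer in balance than the pairings. The balance is graded, and 5 of 12 cells lay within 2 of 0. At a cut of 100, 9 cells had Gad1 or Gad2 without Slc17a6, 2 cells (R.2 and N.2) had Slc17a6 alone and M.1 had both.

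**Figure D2:**
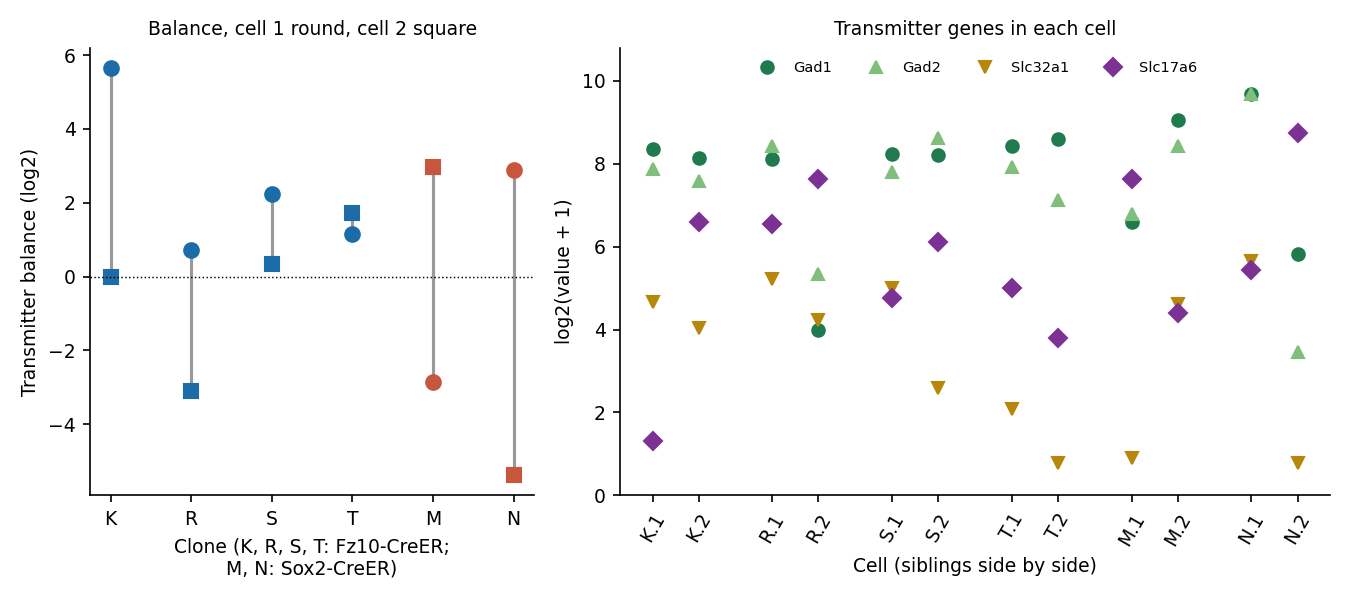
Left, transmitter balance (log2 units) of the 6 clones, cell 1 as a circle and cell 2 as a square, joined by a line (blue Fz10-CreER, red Sox2-CreER). Right, log2(value + 1) of Gad1, Gad2, Slc32a1 and Slc17a6 in each cell, where Slc17a6 lies above both Gad genes in R.2, M.1 and N.2.

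The other transmitter genes also varied within clones. Slc32a1 reached 1 in 9 of 12 cells and did not exceed 49.5 (N.1). Slc17a7, the vesicular glutamate transporter best known from cortex, was at 1 or more in all 12 cells with a highest value of 75.4 (R.1), and Slc17a8 in 1 cell at 1.03. The sibling correlation, the intraclass correlation of log2(value + 1) between the 2 cells of a clone, compares spread between clones with spread within them and is below 0 where siblings differ more than clones do. It was below 0 for all 5 GABA transmitter genes (median -0.50, the lowest Gad2 at -0.72) and above 0 for 2 of 4 tested glutamate genes, among them Slc17a7 (0.22). Over all 16133 genes the median was -0.01, and 48.9% of the genes were above 0. In limma's F test for a clone effect 0 of these 9 genes passed the adjusted threshold, and 0 had an unadjusted p under 0.05.

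Lineage factors of the GABA side were found in both siblings for 6.83 of 22 genes on average, and in both of 2 cells from different clones for 6.94. Of the 22 such factors, 16 were tested and 0 passed, 4 had a sibling correlation above 0, and the median was -0.20. Siblings differed by 2.99 log2 units on average over these genes and cells of different clones, weighted by driver, by 2.54. Tal1, one of these factors, was 238 in N.1 and listed at 0 in N.2, and 200.4 in R.1 and listed at 0 in R.2. It was listed at 0 in K.1 and T.1, with 21.2 in K.2 and 59.2 in T.2. Gata3 had the same order in clones N and R, with 118 in N.1, 36.8 in R.1 and a listed 0 in N.2 and R.2. Within these clones the cell with higher Gad1 was thus the one with Tal1 and Gata3. In clone T the order of these factors was mixed: T.1 had Gata3 at 258, Gata2 at 167 and Lhx5 at 330, whereas T.2 had less Gata3 (44.7) but carried Tal1, Sox14 (27.7) and Otx2 (89.3), all listed at 0 in T.1. Both cells of clone T were rich in Gad1. Otx2, a midbrain homeobox factor, was 1094 in N.1 and 2.38 in N.2, and 234 in M.2 and listed at 0 in M.1. The 4 factors with a sibling correlation above 0 were Tfap2b, Pax7, Dlx5 and Meis2, and Tfap2b reached 272 in S.2 and 271 in T.2, with 69.9 and 59.0 in their siblings.

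On the glutamate side, 18 of 20 factors were tested, 0 passed, and 8 had a sibling correlation above 0 (median -0.01). Siblings shared 5.5 of these factors on average and cells of different clones 5.0. Pou4f1, a POU factor of collicular glutamatergic neurons, was 363 in N.2 and listed at 0 in N.1. It was 133 in T.2 and listed at 0 in T.1, although both cells of clone T were rich in Gad1. Neurod6, a bHLH factor of excitatory neurons, was 1005 in T.2 and 8.34 in T.1, and 175 in K.1 and listed at 0 in K.2. Ebf1, an early B cell factor, was 125 in K.2 and 2.77 in K.1, and 111 in R.2 and 0.346 in R.1. Lhx9, a LIM homeobox factor, was alike in N.1 (98.6) and N.2 (98.7) although their transmitter balances were the farthest apart.

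Neuropeptide genes were alike in the siblings of some clones and differed widely in others. Over the tested peptide genes siblings differed by 2.54 log2 units on average and cells of different clones, weighted by driver, by 2.68. Sst, the somatostatin precursor, was highest in clone S (6896 and 3776) and next in clone T (2314 and 995). It was 644 and 244 in clone K, 425 and 190 in clone R, and 598 and 1018 in clone M. In clone N it split, with 1664 in N.1 and a listed 0 in N.2, and its sibling correlation was 0.05. Sst passed limma's adjusted threshold in the fit without N.1, which leaves clone N with the cell at 0. Npy, neuropeptide Y, was at 1 or more in both cells of clone T alone (135 and 211), in R.1 (39.8) and in S.1 (26.1). Cartpt, the CART peptide, was 258 and 211 in clone T, 187 and 35.6 in clone S, and 29.98 and 31.93 in clone R. It was listed at 0 in both cells of clone K, whereas N.2 had 261 and N.1 a listed 0. Penk, the enkephalin precursor, was likewise listed at 0 in both cells of clone K, and was 148 and 127 in clone R. Penk split clone M, with 140.2 in M.1 and a listed 0 in M.2, and clone N, with 48.2 in N.1 and a listed 0 in N.2. Other peptide genes split as well: Grp was 70.1 in R.1 and listed at 0 in R.2, and Rln3 was 92.7 in M.1 and listed at 0 in M.2. Of 26 peptide genes 17 were tested, 10 had a sibling correlation above 0 (median 0.27), and 4 had an unadjusted p under 0.05 (Cartpt, Chga, Npy and Scg2), with 0 past the adjusted threshold. Over all genes 6.13% had such a p. Tac1, the substance P precursor, was highest in both cells of clone M (399.6 and 574) and was listed at 0 in N.2. Cck, cholecystokinin, was found in all 12 cells, between 15.4 (N.2) and 539.9 (M.1). Npy had a sibling correlation of 0.59 (limma adjusted p = 0.76) and Cartpt of 0.44 (limma adjusted p = 0.79).

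Pvalb, parvalbumin, was found in all 12 cells, between 245 (K.2) and 2175 (R.2) with a median of 657, and differed widely in clones K (2017 and 245) and T (367 and 2018). The sibling correlation of Pvalb was -0.30. Calb1, calbindin, was 703 in R.2 and 49.9 in R.1, and 484 in N.2 and 57.6 in N.1, higher in the sibling richer in Slc17a6 in both clones. In clone T, Calb1 was 564 and 161 and Calb2, calretinin, was 965 and 191, both higher in T.1. Of 18 genes in the list of calcium-binding proteins and their relatives, 10 had a sibling correlation above 0 (median 0.04), and S100a10 had the smallest p. S100a10, an annexin partner, was listed at 0 in both cells of clone N, at 18.2 and 17.3 in clone S, and at 161 and 343 in clone K. Its sibling correlation was 0.93 (limma adjusted p = 0.245).

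The genes that split siblings most, by the median sibling difference among the lists of identity genes, were Sstr1, Neurod1, Lhx5, Tal1, Nxph1, Cbln2, Slc18a2, Otx2, Efna2 and Irx2. These were chosen for their difference, so their values are given with no test. Sstr1, a somatostatin receptor, was at 1 or more in 4 cells, 1 from each of 4 clones: 1253 in S.1, 333 in M.1, 264 in N.2 and 57.3 in R.2. Sst itself was high in both cells of clone S. Nxph1, the neurexin ligand neurexophilin, was above 30 in 1 cell and below 3 in the other in clones R, S, M and N (156 in R.1, 62.3 in S.1, 122 in M.1 and 215 in N.2). Cbln2, a secreted synapse organiser, was 654 in N.2 and 15.96 in N.1. Slc18a2, the vesicular monoamine transporter, was 207 in T.1 and 5.48 in T.2, and Efna2, an ephrin ligand, was 176 in R.1 and 24.6 in R.2. In clone M, M.2 had C1ql2 (224), the nicotinic receptor subunit Chrna6 (173) and the calcium binder Scgn (163), all listed at 0 in M.1. In clone S, the potassium channel gene Kcnk1 was 455 in S.2 and 0.757 in S.1, and Cbln4 was 139 in S.1 and listed at 0 in S.2. In clone T, Kcna4 (388), a voltage-gated potassium channel gene, and Sstr2 (214) were found in T.1 and listed at 0 in T.2. Since single-cell libraries miss transcripts, a listed 0 is the value of that library and may not be the level in the cell.

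**Figure D3:**
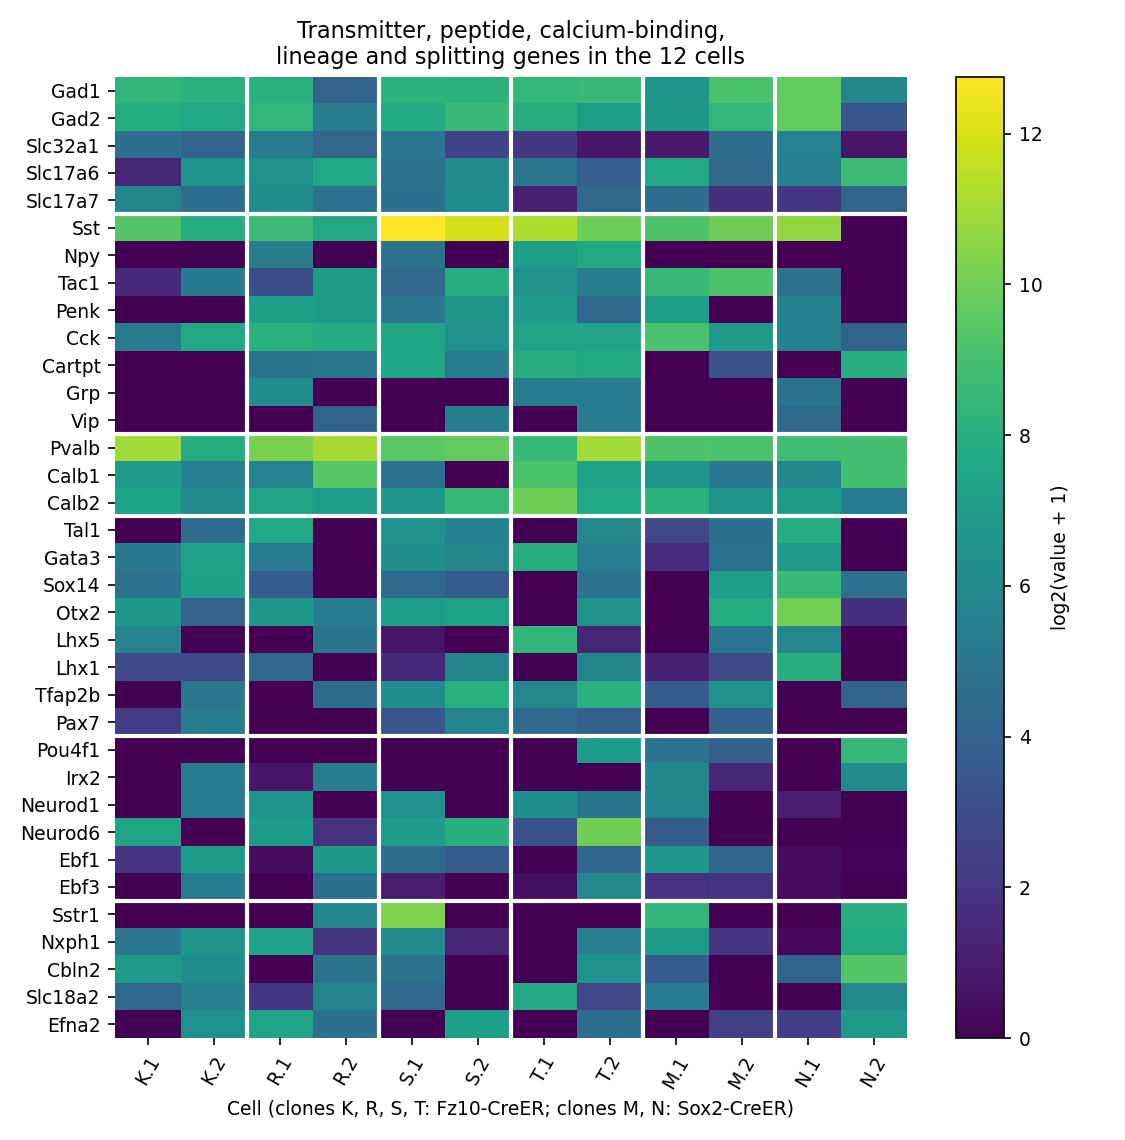
Log2(value + 1) (colour) of transmitter, neuropeptide, calcium-binding, GABA lineage, glutamate lineage and splitting genes (rows, in that order) in the 12 cells (columns, siblings side by side between white lines). Dark cells are at or near 0, and the contrast between neighbouring siblings is strong in clones N and R for Tal1 and Gata3, and in clone N for Sst (1664 and 0).

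Surface and receptor genes were shared about equally by siblings and by cells of different clones. The clustered protocadherins, surface molecules of which a neuron uses a small subset, were sparse: 44 of 55 measured members reached 1 in some cell, and a cell held between 1 and 15 of them. Siblings shared 0 in clones K and T, 1 each in clones R, S and N and 2 in clone M, 5 in all, while 77 cases were found in 1 sibling alone. On average siblings shared 0.83 and cells of different clones 1.28. Of 17 Eph and ephrin genes siblings shared 10.5 and others 10.8, and of 34 neuromodulator receptors 10.7 and 10.4. Cadherins had a sibling correlation above 0 in 6 of 22 genes (median -0.13). Potassium channels had a sibling correlation above 0 in 26 of 36 genes (median 0.17). Of these 36, 2 had an unadjusted p under 0.05, Kcnd1 and Kcnd2 of the A-type current, where 6.13% of all genes had one, and no difference between lists was tested. Among the cadherins, Eph and ephrin genes, neuromodulator receptors, potassium channels and 12 tested protocadherins, 0 passed the adjusted threshold, while Efnb3 and Pcdhb11 also had an unadjusted p under 0.05.

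Tested gene by gene, 3 of 16133 genes (0.0186%) differed between the 6 clones beyond the spread of siblings (limma F test, Benjamini-Hochberg adjusted p under 0.05), and 989 (6.13%) had an unadjusted p under 0.05. Gm9812 (ENSMUSG00000046747), annotated as a pseudogene inside Ralgapa1 on the opposite strand, was listed at 0 in both cells of clones K, R and T. It was very high in both cells of clones S (64449.8 and 283689), M (183323 and 23048) and N (67894 and 93814). The clones thus fell into all or none, with siblings matched in presence but not in level (sibling correlation 0.99, limma adjusted p = 7.3e-07). The other 12 clones of the series went against this. There 9 clones had 1 cell at 0 and its sibling at 26313 or more, 2 clones had neither cell and 1 clone had both.

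Tyrobp (ENSMUSG00000030579), a signalling adaptor of microglia, was listed at 0 in both cells of clone N. It was 1179.96 and 742 in clone K, 222 and 359 in clone R, 297 and 284 in clone S, 369 and 582 in clone T, and 247 and 118 in clone M. Clone N was set apart (sibling correlation 0.98, limma adjusted p = 0.00282). With clones compared within their driver the limma adjusted p was 0.0639, and without clone N the adjusted p was 0.873. Tyrobp was at 1 or more in both cells of 10 of the other 12 clones and in 1 cell of the other two. The summed microglia markers were also lowest in N.1 (234), where Tyrobp, Aif1, C1qa and P2ry12 were all listed at 0. Other members were present there: 7 of the 18 microglia markers were at 1 or more in both cells of clone N. N.2 had 918 and M.2 had 803, and the other 9 cells had between 1438 and 4987. The part of these transcripts in the Tyrobp difference was not tested.

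Cryab (ENSMUSG00000032060), a small heat shock protein gene that overlaps Hspb2, was 0 and 1.36 in clone N and 1154 and 3072 in clone M. The other 8 cells lay between 112 and 470.5, so clone N was low and clone M high (sibling correlation 0.95, limma adjusted p = 0.0174). With clones compared within their driver it was 0.0211. In the other 12 clones Cryab reached 1 in both cells of 6, in neither cell of 2 and in 1 cell alone of 4. Without clone M the adjusted p was 0.182, and without clone N it was 0.847. Oligodendrocytes also express Cryab, and the summed oligodendrocyte markers had the same extremes, 8588 and 31228 in clone M and 1579 and 2349 in clone N, between 2786 and 7445 in the others. Their part in the Cryab difference was not tested.

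The genes next by p did not pass. Tmem41a, a membrane protein gene, was listed at 0 in both cells of clone S and lay between 60.5 and 227 in the other 10 cells (sibling correlation 0.98, limma adjusted p = 0.15). Cdk2ap2, a cell cycle inhibitor, was listed at 0 in both cells of clone R and lay between 52.8 and 3182 in the others (0.76, limma adjusted p = 0.245). Gm45631, antisense to Clcn4, was 1326 and 489 in clone N and did not exceed 2.81 in the other 10 cells (0.97, limma adjusted p = 0.23). The antisense transcript of Chmp3, 1700040L08Rik, was listed at 0 in both cells of clones K and S and lay between 73.8 and 655 in the other 8 (limma adjusted p = 0.0735). In each of these genes the siblings of the 6 clones were either both high or both at or near 0. Of these genes, Tmem41a and Gm45631 were looked up in the other 12 clones, where this did not hold. There 6 clones had Tmem41a in 1 cell alone and 4 had Gm45631 in 1 cell alone. Rpl26, a ribosomal protein gene, was 110 and 67.0 in clone M and 43.3 and 42.7 in clone N, against 291 to 923 in the 8 Fz10-CreER cells (0.94, limma adjusted p = 0.30). With clones compared within their driver the limma adjusted p of Rpl26 was 0.939. Spata25, Gm48342 and the unnamed ENSMUSG00000118642 and ENSMUSG00000119584 were also among the 12 genes of smallest p.

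**Figure D4:**
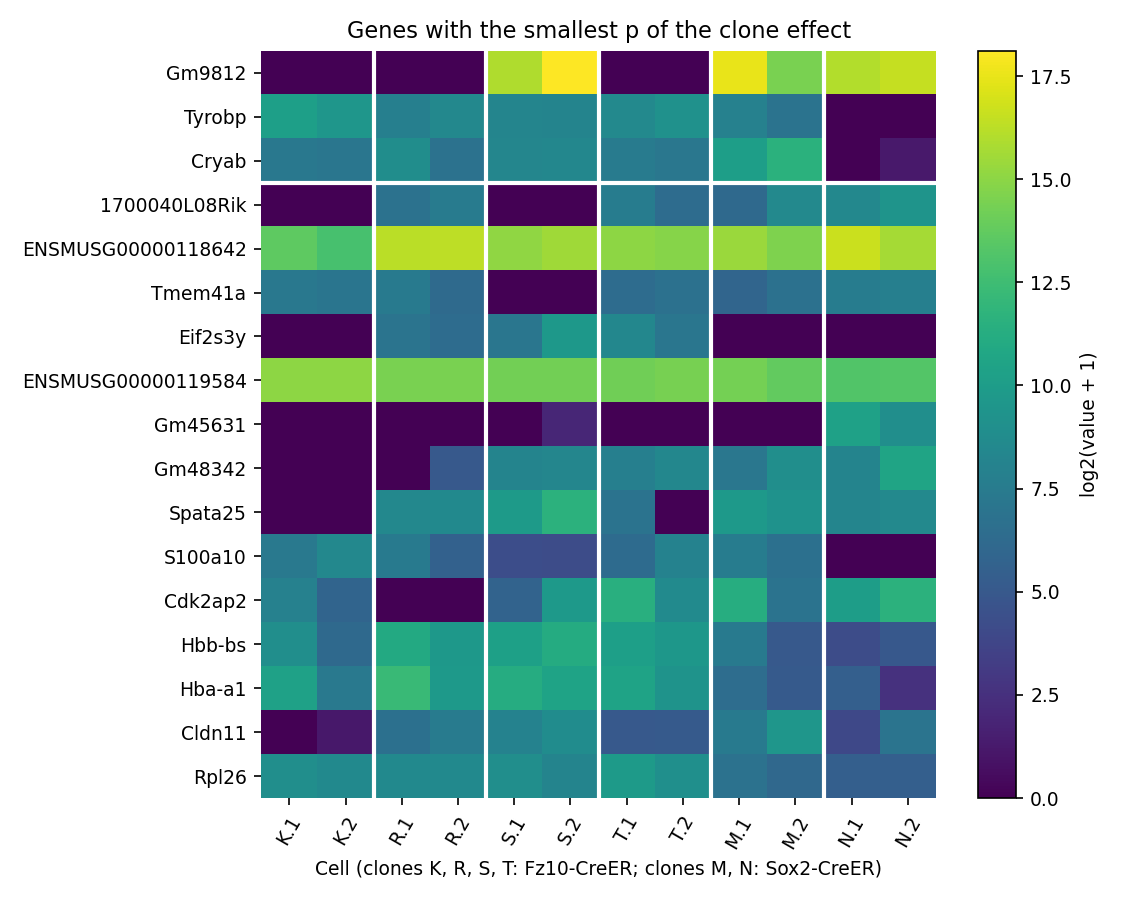
Log2(value + 1) (colour) of the genes with the smallest p of the clone effect and of coding genes chosen the same way (rows) in the 12 cells (columns, siblings side by side). The 3 rows above the white horizontal line passed the adjusted threshold, Gm9812 (0 in clones K, R and T), Tyrobp (0 in clone N) and Cryab (0 and 1.36 in clone N).

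Y-linked genes matched within clones. Eif2s3y, a translation factor subunit on the Y chromosome, was 123 and 84.0 in clone R, 137 and 810.5 in clone S and 337 and 135 in clone T, and was listed at 0 in all 6 cells of clones K, M and N (sibling correlation 0.96, limma adjusted p = 0.15). In the other 12 clones of the series Eif2s3y also matched, at 1 or more in both cells of 5, in neither cell of 7 and in 1 cell alone of 0. Kdm5d was at 1 or more in both cells of clones S (65.4 and 29.6) and T (14.4 and 2.37) and listed at 0 in both cells of clone R. Ddx3y was between 16.8 and 350.0 in the cells of clones R, S and T and between 0 and 5.05 in those of clones K, M and N. Xist, the X-inactivation RNA, was low in all cells, with a highest value of 37.7 in N.1. It was listed at 0 in S.2, T.1 and T.2 and was 7.40 in R.1. All 5 tested sex-linked genes had a sibling correlation above 0 (median 0.73), and 3 had an unadjusted p under 0.05. Over all genes these shares were 48.9% and 6.13%.

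Markers of oligodendrocytes and red blood cells had a sibling correlation above 0 in most of their genes, and the red blood cell markers also differed by driver. Over all genes 48.9% had a sibling correlation above 0 and 6.13% an unadjusted p under 0.05. Of 16 oligodendrocyte markers, 14 had a sibling correlation above 0 (median 0.38) and 4 had an unadjusted p under 0.05, among them Cldn11, Mal and Opalin. Mal, a myelin membrane protein gene, was 848 and 4729.7 in clone M, 22.5 and 44.9 in clone N, and 91.0 and 4.90 in clone K. Cldn11, a myelin tight junction protein, was 0 and 1.21 in clone K and 259 and 445 in clone S (sibling correlation 0.86, limma adjusted p = 0.30). All 5 tested red blood cell markers were above 0 (median 0.60), and 4 had an unadjusted p under 0.05 (6.13% over all genes), all globin genes. This went with the driver: over these genes siblings differed by 1.94 log2 units and cells of different clones of the same driver by 1.71, and the sibling gap was the smaller one for 2 of 5. With clones compared within their driver the limma adjusted p was 0.939 for Hba-a1 and 0.851 for Hbb-bs. Cytosolic ribosomal protein genes were above 0 in 37 of 57 (median 0.10), and heat shock genes in 12 of 14 (median 0.16). Microglia markers were above 0 in 9 of 17 (median 0.14) and astrocyte markers in 6 of 16 (median -0.13). Apart from Tyrobp, 0 members of the lists passed the adjusted threshold, and no difference between lists was tested. The sibling correlation of the log2 summed level per cell was 0.81 for red blood cell markers, 0.74 for ribosomal proteins and 0.66 for oligodendrocyte markers. It was 0.57 for neuron markers, 0.565 for vascular and meningeal markers and 0.43 for microglia markers. Astrocyte markers had 0.25 and immediate early genes -0.31. For red blood cell markers and ribosomal proteins these sums did not overlap between drivers (ribosomal sums of 29946 to 36584 in Fz10-CreER cells and of 22460 to 28857 in Sox2-CreER cells). The sums of neuron, microglia, astrocyte, oligodendrocyte, vascular and immediate early genes did overlap between drivers. The share of all genes without such an overlap is not given here.

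Immediate early genes, induced by neuronal firing, differed widely within clones. Fos was 6455 in N.2 and 50.8 in N.1, and 2472 in M.1 and 772 in M.2. Of 25 such genes, 9 had a sibling correlation above 0 (median -0.17). Arc was an exception with 0.98: it was listed at 0 in both cells of clones K and S and was 44.2 and 22.9 in clone R, 42.5 and 46.1 in clone T, 11.9 and 23.3 in clone M, and 15.1 and 15.8 in clone N (limma adjusted p = 0.67).

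**Figure D5:**
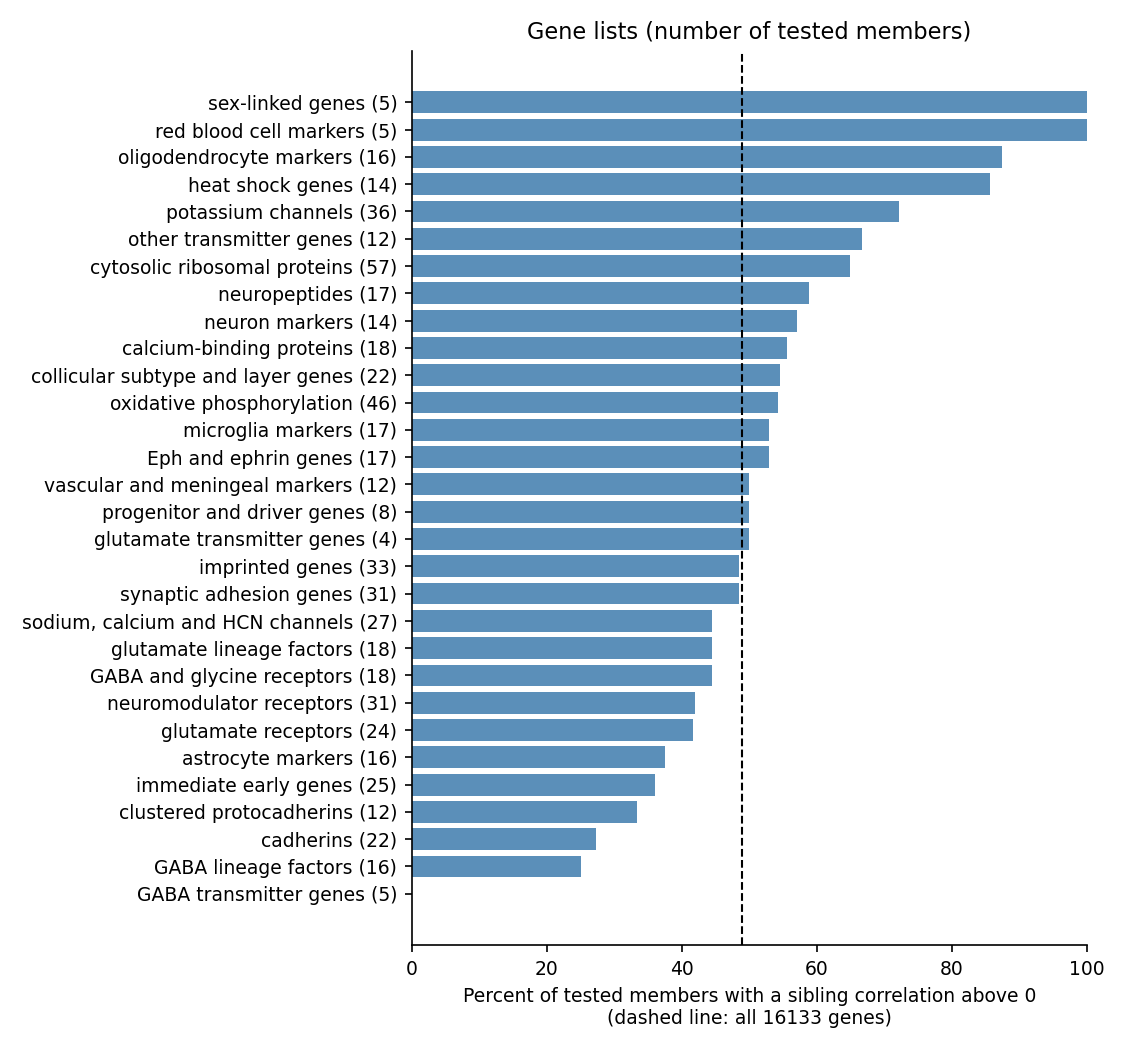
Percent of the tested members of each gene list (number in brackets) whose sibling correlation is above 0. The dashed line is the 48.9% of all 16133 genes. Red blood cell, sex-linked and oligodendrocyte genes lie highest, and GABA lineage factors (4 of 16) and GABA transmitter genes (0 of 5) lowest.

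Siblings that both lay in sSC were compared with siblings split between sSC and dSC, read as the deep colliculus, in 9 other clones. Over the genes detected in these 15 clones the sibling gap averaged 2.00 ± 0.24 in the 6 clones with both cells in sSC (SD, n = 6) and 2.23 ± 0.49 in the 9 split clones (SD, n = 9). The difference of -0.23 did not exceed the spread between clones (two-sided exact permutation test over clones, p = 0.335). Clone B, whose sSC cell has 2661 genes, had the largest gap of the split clones (3.36), and without it the difference was -0.09 (exact permutation p = 0.503).

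The 12 cells were also set against the 10 sSC cells whose sibling lay elsewhere, with the clone as the unit (6 clone means and 10 single cells). No gene passed (0 of 14320, 0%, in limma), with 995 (6.95%) at an unadjusted p under 0.05, 982 of them higher in the 12 cells (6.86%) and 13 lower (0.0908%). The median over all genes was 0.76 higher in the 12 cells, and 11497 genes were higher. Genes detected moved with this: the median was 12652.5 in the 12 cells and 9244.5 in the other 10, which ranged between 2661 and 16769. With genes detected as a covariate the median was -0.01, with 0 genes past the threshold and 419 at an unadjusted p under 0.05. Arpin, an inhibitor of the Arp2/3 complex, came nearest. Arpin was at 1 or more in 8 of 12 cells (lowest 0, median 26.02, highest 151) and in 0 of the other 10 (highest 0.874), 3.69 ± 1.40 against 0.09 ± 0.29 on the log2 scale (SD, n = 6 and 10, difference 3.60, SE 0.69, limma adjusted p = 0.11). The arginine and lysine transporter gene Slc7a3 was at 1 or more in 8 of 12 cells and listed at 0 in all of the other 10 (limma adjusted p = 0.11), and C030006N10Rik, an unclassified transcript within Nkain2, was at 1 or more in 6 of 12 and listed at 0 in the other 10. Gm6356 (3.46) and Zfp933 (3.53) were next, each at 1 or more in 8 of 12 cells and in 1 of the other 10. The filter was taken over all 22 sSC cells together. These higher genes met it through the 12 cells, where they are high, so their absence elsewhere is no separate support. The smallest p among lower genes was that of Ostc, of the oligosaccharyltransferase complex (-2.73, SE 0.88, limma adjusted p = 0.42), followed by Pde5a (-2.75), Mrpl48-ps (-2.33), AC154766.4 (-2.84) and Pus3 (-3.18). Without the sSC cell of clone Q, which has the most genes of all (16769), 36 genes passed.

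GABA lineage factors had a higher mean in the 12 cells in 13 of 13 tested members (median 1.63 against 0.76 over all genes). Of these, 6 had an unadjusted p under 0.05. Over all genes, 11497 of 14320 had the higher mean in the 12 cells, and 6.86% were higher with such a p. With genes detected as a covariate the median over all genes was -0.01. The median of this list with that covariate is not given, so its direction is not read apart from the genes detected. Tal1 was at 1 or more in 8 of 12 cells and in 3 of the other 10 (difference 2.45, SE 1.03), and Meis2 in 12 of 12 and 6 of 10 (2.64, SE 1.21). Tfap2b was at 1 or more in 9 of 12 and 3 of 10 (2.68, SE 1.25). Of 22 members of the list 13 met the filter, taken over all sSC cells together. Tal1 and Tfap2b met it mainly through the 12 cells. For Tal1, Meis2 and Tfap2b these counts and differences are therefore no separate support. Their limma adjusted p lay between 0.67 and 0.69. By direction alone, glutamate lineage factors had the higher mean in the 12 cells in 9 of 16 (median 0.58), neuropeptides in 9 of 15 (median 0.76) and microglia markers in 7 of 16 (median -0.11). Gad1 differed by 1.16 (SE 1.26), Gad2 by 2.21 (SE 1.38) and Slc17a6 by 0.34 (SE 1.43), with limma adjusted p between 0.76 and 0.957. No GABA or glutamate transmitter gene therefore differed from the other sSC cells beyond the spread of clones.

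Within the 6 clones, Fz10-CreER was compared with Sox2-CreER over clone means (4 against 2 clones). As no animals are named, the driver cannot be told apart from the animal or its collection. Clones of the same driver may also share an animal, so they may not be independent. In limma 2 of 16133 genes (0.0124%) passed, both alpha globin genes, and 869 (5.39%) had an unadjusted p under 0.05, of which 143 (0.886%) were higher and 726 (4.5%) lower in Fz10-CreER clones. The median over all genes was -0.40. Hba-a2 (ENSMUSG00000069917) was between 157 and 2514 in the 8 Fz10-CreER cells (median 341), against 36.3 and 0 in the Sox2-CreER cells of clone M and 16.3 and 0 in those of clone N. Every Fz10-CreER cell was above every Sox2-CreER cell, with clone means of 8.58 ± 0.75 (SD, n = 4) and 2.33 ± 0.39 (SD, n = 2) on the log2 scale, a difference of 6.24 (SE 0.72, limma adjusted p = 0.0154). Hba-a1 (ENSMUSG00000069919) was between 162 and 4842 in Fz10-CreER cells and between 4.95 and 86.5 in Sox2-CreER cells, a difference of 5.24 (SE 0.65, limma adjusted p = 0.0171). The summed red blood cell markers were between 611 and 9626 in Fz10-CreER cells and between 54.9 and 340 in Sox2-CreER cells, with Slc4a1 listed at 0 in all 12 cells, and their part in the difference was not tested. Without clone N, R or T, or at a pseudocount of 10, 0 genes passed.

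Other genes did not pass the driver comparison. C1qb, a complement subunit made by microglia, was between 61.8 and 752 in Fz10-CreER cells and between 0 and 443 in Sox2-CreER cells, a difference of 3.83 (SE 0.60, limma adjusted p = 0.124). Of 17 tested microglia markers 13 had the higher mean in Fz10-CreER clones (median 1.31), as did 5614 of all 16133 genes. The summed microglia markers overlapped between drivers, with 1438 to 4342 in Fz10-CreER cells and 234 to 4987 in Sox2-CreER cells. The highest sum of the 12 cells was that of M.1, a Sox2-CreER cell. The pseudogene Gm11942 (4.21) and the beta globin gene Hbb-bt were next. The smallest p among genes with a lower mean in Fz10-CreER clones were those of Ppp1r35, a centrosomal protein gene (-5.33, SE 0.87, limma adjusted p = 0.142), and 4 noncoding genes, Gm15522, Gm14705, Gm26770 and Gm48265. Gm14705, antisense to Aff2, was listed at 0 in all 8 Fz10-CreER cells and lay between 33.3 and 138 in the 4 Sox2-CreER cells. Immediate early genes had the lower mean in Fz10-CreER clones in 22 of 25 members (median -1.46), and glutamate lineage factors in 10 of 18 (median -1.04). None of either list passed the threshold, and most genes had the lower mean in Fz10-CreER clones. The summed immediate early genes ran between 596 and 3141 in Fz10-CreER cells. In Sox2-CreER cells they ran between 435 (N.1, the lowest of the 12) and 10850 (N.2). Transmitter genes differed by -0.03 for Gad1 (SE 0.67), 0.50 for Gad2 (SE 0.59) and -1.33 for Slc17a6 (SE 0.99), with limma adjusted p between 0.935 and 0.999.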

How the data were processed

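Polyadenylated RNA of single neurons was made into libraries, per the labels' protocols, by a SMART-Seq kit (Single Cell PLUS). The authors deposited 1 table of 55359 genes in 36 cells whose signal is the exon TPM plus the intron TPM of each gene, so that each cell sums to 2000000. Per the submitters' processing notes, STAR 2.7.9a and R 4.0.3 were used with GRCm39. Not given in the sources used here are the strand setting, the formula, the counting program and the gene annotation. No read counts were used, so the depth is unknown and no interval for counting error can be had. Genes detected are given per cell in its place. Without a stated strand setting, reads of a gene and its antisense partner may not be separated. Symbols were matched by gene ID to GENCODE M21 (52083 IDs matched), and no coordinates are given because that annotation has another build.

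Values were analysed as log2(value + 1), which understates the change of low genes. Genes had to reach 1 in at least 25% of the cells compared. Clone effects were tested in limma by a moderated F test of the 6 clones (trend and robust), with Benjamini-Hochberg adjustment over all 16133 genes and a threshold of 0.05. The sibling correlation is (MSB - MSW) / (MSB + MSW), from the mean squares between and within clones. Sibling gaps were tested by exact permutation over all pairings within driver, and clones with both cells in sSC against split clones by exact permutation over clones. The 12 cells against other sSC cells, and Fz10-CreER against Sox2-CreER, were tested with limma on clone means. Residual spread is that between cells or clones, which may be partly technical, since no label gives the animals.

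Named genes are taken from the genes past the threshold, the 12 of smallest p, the 10 leading coding genes with a mean of 4 or more on the log2 scale, the 10 identity genes with the largest median sibling difference, up to 4 per direction and clone where the higher cell has 50 or more, and the 5 of smallest p per direction in the comparisons of groups. Fixed transmitter, peptide, calcium-binding, sex-linked and driver genes were added. The clones and gene lists were chosen with earlier results of these data known. Other genes named as examples within a list were picked after their values were seen. Alternatives covered the pseudocount (0.1 and 10), the filter (none and 50% of cells), quantile normalization, removal of dominant genes, the limma settings, genes detected as a covariate, a replicate block, the distance measure, the pairings, and each clone or cell left out. The fits were tested on simulated data. R 4.3.3 with limma 3.58.1 and Python 3.11.15 with numpy 2.4.6, pandas 2.3.3, scipy 1.17.1 and matplotlib 3.10.9 were used.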

Additional observations from a re-analysis of the deposited data

Results flagged for a closer look

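In 6 cases a clone lay apart from the other clones by more than Dixon's 95% limit for its group, a limit that chance alone passes in about 1 in 20 groups. Clone B, whose sSC cell has 2661 genes detected, had the largest sibling gap of the 9 clones split between sSC and dSC (3.363). The other 5 cases are clone means of log2(value + 1) over the 6 clones with both cells in sSC. Clone N had a mean of 0.0 for Tyrobp, of 0.619 for Cryab and of 9.655 for Gm45631. Clone S had a mean of 0.0 for Tmem41a, and clone R had a mean of 0.0 for Cdk2ap2. These genes are among those chosen for the smallest p of the clone effect.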

How the results depend on the processing

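The sibling gap across genes minus that of the pairings, -0.01, changed sign with quantile normalization (0.00488) and with 1 minus Pearson correlation (0.008304). With 1 clone left out it ran between -0.02342 (clone S) and 0.0009324 (clone M), and was also reversed without clone N (0.0003937) and clone R (0.0006528). The gap in genes detected, 45.8, was reversed at a value of 10 or more (-38.4) and over pairings of all 12 cells (-311.1), and ran between -149.3 (without clone S) and 198.6 with a clone left out. The transmitter balance gap kept its sign, between 0.188 and 1.01 with a clone left out, as did the gap of both-sSC against split clones, between -0.301 and -0.0868.

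The 3 genes with a clone effect became 1 at a pseudocount of 10 or with neither trend nor robust, and 5 with genes detected as a covariate or with the replicate block. With a clone left out the count ran between 1 (clone N) and 5 (clone K), and with a cell left out between 2 and 114. It was 114 without S.1, 10 without K.2, 6 without K.1, and 5 without R.2 or T.2. Gm9812 passed in 18 of 18 such fits, Tyrobp in 17 and Cryab in 11. With clones compared within driver 2 passed, Gm9812 and Cryab. Replicate numbers do not pair the cells: 15 correlations of same-numbered deviations lay between -0.04 and 0.026.

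Against the other sSC cells the count of 0 ran between 0 and 36 with a clone left out (36 without clone Q, 1 without clone U). The 2 genes of the driver comparison became 0 at a pseudocount of 10 or with neither trend nor robust, 4 with no filter and 1 with a filter at 50% of cells. With a clone left out the count ran between 0 (clones N, R and T) and 8 (clone M), with 6 without clone K and 4 without clone S. Without clone M or N, 1 Sox2-CreER clone remains, assumed to vary like the Fz10-CreER clones. Except where a sample was left out, the cause was not tested. The depth is unknown, and what likeness of siblings 6 clones of 2 cells could show was not measured.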
